A study of Mus musculus with 9 samples.

Results

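The genes described here are 10 inhibitory and tolerance molecules of dendritic cells (DCs), measured as mRNA by RNA-seq in bone marrow-derived DCs (BMDCs). They were chosen by name: the PD-1 ligands Cd274 (PD-L1) and Pdcd1lg2 (PD-L2), the lectin gene Lgals9 (galectin-9), the checkpoint molecule Vsir (VISTA), the inhibitory receptors Havcr2 (TIM-3), Cd200r1 and Sirpa (SIRPα), the tryptophan-degrading enzymes Ido1 and Ido2, and the cytokine gene Tgfb1. All 10 were among the 57238 entries of the count table and all 10 were among the 15028 genes that passed the filter on low counts and were tested.

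BMDCs were grown from wildtype C57BL/6 bone marrow for 6 days in 20 ng/ml GM-CSF per the labels, while the study's methods give femurs of mice aged 8 to 10 weeks and 7 days of culture. Control cells (CTR) received no exosomes, NE cells received exosomes of normal cells for 24 hours and TDE cells received exosomes of tumor cells for 24 hours, with 3 libraries per group. Exosomes are small vesicles that cells release; the study took its normal-cell exosomes from a fibroblast line, and the labels name no tumor line. No source says that replicates came from separate cultures or animals, so p-values measure the spread between these libraries, which may be technical, and the labels give no sort of the cells. The study's methods call the BMDCs purified before RNA extraction.

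Dendritic cells present antigen to T cells and decide, through the ligands and cytokines they display, whether the T cell is activated or restrained. PD-L1 and PD-L2 bind PD-1 on T cells and dampen signalling from the antigen receptor, galectin-9 binds TIM-3 among other glycoproteins, and VISTA restrains T cells and myeloid cells. SIRPα, CD200R1 and TIM-3 act on the DC itself as receptors that restrain uptake or activation, IDO enzymes convert tryptophan to kynurenine, and TGF-β1 favors regulatory T cells.

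Library totals ran from 17469713 to 21092850 estimated reads, and 3 reads, the least taken as detection, corresponded to 0.135 to 0.190 CPM (TMM-normalized counts-per-million values). CTR replicate 1 stood apart: its mean correlation with the other CTR libraries was 0.870 against 0.919 to 0.990 for every other library with its own group, and its TMM factor was 0.749. The summed neutrophil markers reached 28947 CPM in it, against 7243 and 9586 CPM in the other CTR libraries, and the summed DC markers reached 15043 CPM against 5693 and 6727 CPM. Results are therefore given with and without that library. Of the DC markers, Itgax, which encodes CD11c, was at 107 to 177 CPM, Zbtb46 at 13.7 to 19.9 CPM and Flt3 at 11.6 to 15.97 CPM over the 9 libraries, and of the 11 tested 0 were higher and 6 lower in TDE than in CTR. The macrophage marker Adgre1 was at 206 to 486 CPM in CTR and NE libraries and at 2111 to 2308 CPM in TDE libraries, so the cultures carried macrophage marker RNA beside DC marker RNA. Summed neutrophil markers were at 3250 to 3547 CPM in TDE libraries and summed eosinophil, basophil and mast cell markers at 115 to 136 CPM, against 487 to 1565 CPM in CTR libraries. Of the 10 neutrophil markers 8 were lower in TDE than in CTR, and of the 10 eosinophil, basophil and mast cell markers all 10 were. T and NK cell markers summed to at most 10.4 CPM and fibroblast and epithelial markers to at most 19.1 CPM in any library. In bulk RNA, fewer cells of a type and less RNA per cell cannot be told apart, and the part of these marker shifts in the results below was not tested.

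After tumor exosomes, Cd274, Pdcd1lg2 and Vsir rose and Havcr2 fell, both against untreated cells and against cells given normal-cell exosomes. Against CTR, Cd274 rose 3.45-fold, Pdcd1lg2 2.004-fold and Vsir 1.60-fold, and Havcr2 was 4.72-fold lower; against NE the sizes were 2.76-fold, 1.84-fold and 1.62-fold higher and 6.02-fold lower. Lgals9, Cd200r1, Sirpa, Ido1, Ido2 and Tgfb1 did not pass the test in either comparison. By edgeR's quasi-likelihood test with Benjamini-Hochberg adjustment over all tested genes, 4 of the 10 genes passed an adjusted p of 0.05 in TDE against CTR, 3 higher and 1 lower, where 16.9% of all tested genes passed, 7.57% higher and 9.34% lower. In TDE against NE the same 4 genes passed, again 3 higher and 1 lower, where 13.9% of all genes passed, 6.73% higher and 7.21% lower. Both comparisons use the same TDE libraries, so they are not independent. The median log2 fold change of the 10 genes was 0.39 against CTR and 0.34 against NE, where the median of all tested genes was -0.06 and -0.02. Groups did not overlap for 7 of the 10 genes in TDE against CTR and for 7 in TDE against NE, beside 44% and 54.5% of all tested genes, so a lack of overlap was common across the whole transcriptome.

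Normal-cell exosomes left no mark that passed the test on any of the 10 genes. In NE against CTR edgeR called 0 of them and 0 of all genes (0% of those tested), with 487 genes at an unadjusted p under 0.05, while DESeq2 called 3 genes and limma voom 18, none of them among the 10. The groups did not overlap for 1 of the 10, Havcr2, where 7.71% of all genes did not overlap.

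**Figure D1:**
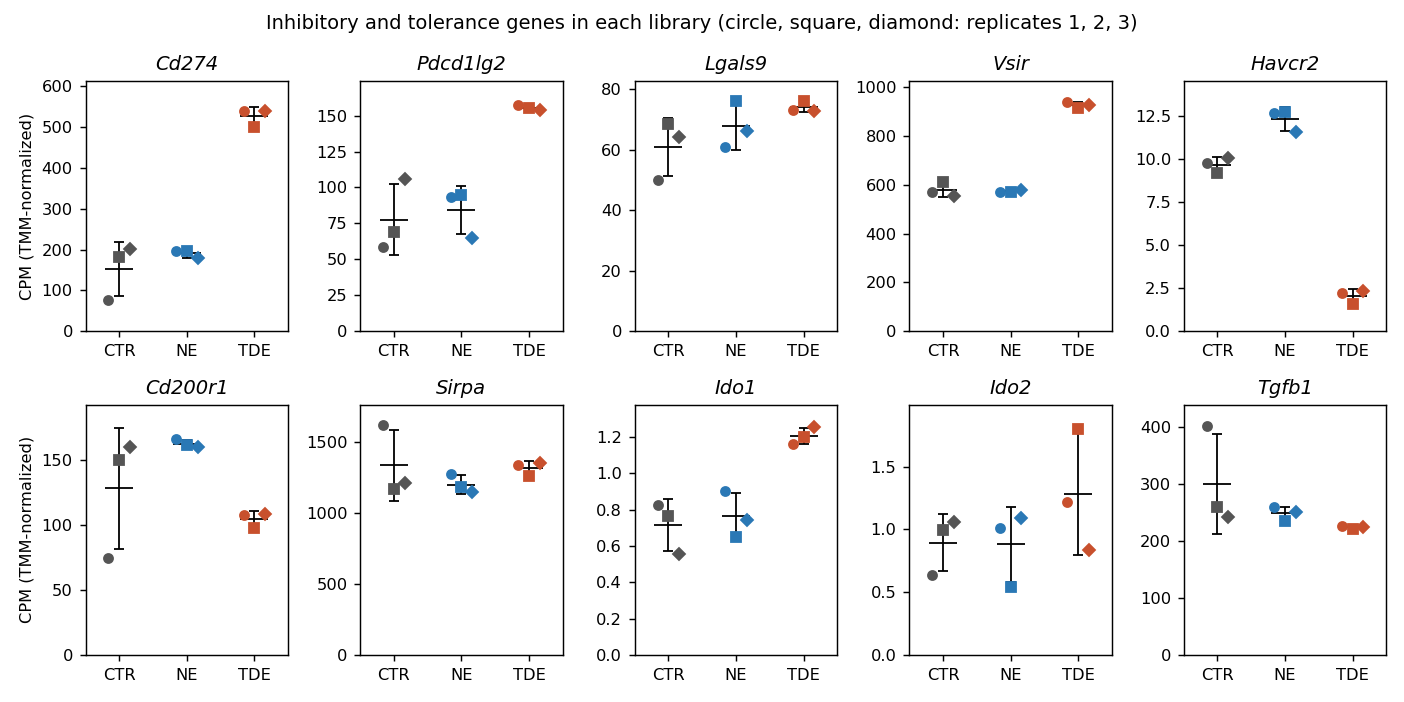
Level of each of the 10 genes in every library in TMM-normalized CPM (linear axes from 0, 1 panel per gene), with points for the 3 replicates of CTR, NE and TDE and a horizontal bar with whiskers for mean ± SD. Cd274, Pdcd1lg2 and Vsir lie higher in all 3 TDE libraries than in any other, Havcr2 lies lower, and the lowest CTR point of Cd274 and Cd200r1 is CTR replicate 1.

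The PD-1 ligands were examined first. Cd274 was at 75.7, 181 and 200.3 CPM in the CTR libraries, at 197, 197 and 178 CPM in the NE libraries and at 540.1, 500.4 and 539 CPM in the TDE libraries. All 3 TDE libraries were above every other library, and CTR replicate 1 was the lowest of the 9. The mean was 526 ± 22.6 CPM in TDE, 152 ± 67.1 CPM in CTR and 191 ± 11.0 CPM in NE (SD, n = 3). Against CTR the log2 fold change was 1.79 (SE 0.321, 95% interval 1.05 to 2.52, edgeR adjusted p = 0.00782). Without CTR replicate 1 it was 1.46 with a smaller SE of 0.0867 (adjusted p = 5.80e-06), so the rise did not rest on the low library.

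Against NE the Cd274 difference was 1.46 (SE 0.318, 95% interval 0.74 to 2.19, edgeR adjusted p = 0.0182). The size of this difference hardly moved between settings, from 1.40 to 1.502, but its adjusted p crossed the threshold in several. It was 0.0637 with library totals in place of TMM factors and 0.0599 to 0.0739 when any 1 of the 3 NE or 3 TDE libraries was left out. It was 1.53e-06 without CTR replicate 1 and 3.69e-06 when only the 6 libraries of TDE and NE were fitted.

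Pdcd1lg2 was at 58.3, 69.0 and 105.6 CPM in CTR, at 93.7, 94.8 and 65.1 CPM in NE and at 157, 155 and 154 CPM in TDE. The TDE libraries lay close together and above all others, whereas CTR and NE spread over the same range. The TDE mean of 156 ± 1.71 CPM stood against 77.6 ± 24.8 CPM in CTR and 84.5 ± 16.8 CPM in NE (SD, n = 3). The log2 fold change was 1.003 against CTR (SE 0.240, edgeR adjusted p = 0.0255) and 0.88 against NE (SE 0.240, adjusted p = 0.0442). These calls were the least firm of the 4 genes. Against CTR 10 of 17 alternative settings kept the call, and it was lost without CTR replicate 2 (adjusted p = 0.0729) and without any 1 TDE library (adjusted p = 0.0826 to 0.0881). Against NE 7 of 17 kept it. It was lost without CTR replicate 2 (adjusted p = 0.0668), without any 1 NE library (0.0997 to 0.130) and without any 1 TDE library (0.128 to 0.134), and the difference stayed between 0.73 and 0.97 throughout.

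Cd274 and Pdcd1lg2 are neighbours. In GRCm38, Cd274 spans chr19:29367455-29388095 with 7 merged exons and Pdcd1lg2 spans chr19:29410919-29471161 with 6, both on the plus strand and 22823 bases apart. Within 250 kb of the pair, a window chosen after the values were seen, 9 other genes were tested. In TDE against CTR 1 of them was higher and 0 lower, beside 7.57% and 9.34% of all tested genes. The higher one was A930007I19Rik, an antisense gene at chr19:29464750-29523159 that overlaps the end of Pdcd1lg2 on the other strand without sharing exon bases in the annotation (log2 fold change 1.02, SE 0.131, edgeR adjusted p = 0.00184). Jak2, the kinase gene upstream of the pair, did not pass with all libraries (0.53, edgeR adjusted p = 0.138). Without CTR replicate 1 it passed as higher against CTR (0.28, adjusted p = 0.0183) and against NE (0.29, adjusted p = 0.00719). A second antisense gene, AC119228.1, shares 511 bases with the exons of Cd274, 14.1% of them, and because the strand setting of the counting is not given, reads there could belong to either gene. Its own log2 fold change was 1.72 and did not pass (SE 0.902, adjusted p = 0.207).

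The promoters of the 2 neighbours are shown because these genes lie side by side and both rose. Each is the 250 bases before the start of the gene in RefSeq on GRCm38.p6, plus strand, with Cd274 at chr19:29367188-29367437 and Pdcd1lg2 at chr19:29410669-29410918, and capitals mark a match to a searched motif.
Cd274: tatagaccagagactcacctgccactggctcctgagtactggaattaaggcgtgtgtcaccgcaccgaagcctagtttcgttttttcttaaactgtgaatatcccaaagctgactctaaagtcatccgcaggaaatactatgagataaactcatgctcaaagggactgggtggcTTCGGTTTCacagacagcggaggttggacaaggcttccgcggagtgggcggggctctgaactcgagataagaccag
Pdcd1lg2: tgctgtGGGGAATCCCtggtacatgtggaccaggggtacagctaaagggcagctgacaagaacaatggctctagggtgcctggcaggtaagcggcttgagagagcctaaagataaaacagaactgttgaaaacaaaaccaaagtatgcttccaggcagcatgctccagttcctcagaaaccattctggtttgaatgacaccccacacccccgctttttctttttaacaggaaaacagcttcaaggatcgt
The 5 motifs searched on both strands in the 32851 RefSeq promoters of this length were the interferon-stimulated response element core GAAANNGAA, held by 7.13% of them, the interferon gamma-activated site TTCNNNGAA, held by 7.02%, the AP-1 site TGANTCA, held by 6.75%, the hypoxia response core ACGTG, held by 16.6%, and the NF-kB consensus, held by 7.25%. The Cd274 window held 1 interferon-stimulated response element core on the minus strand, at -76 to -68 from the start, and the Pdcd1lg2 window held 1 NF-kB consensus at -244 to -235. No match overlapped another, and the windows shared none of the motifs. A match in letters is a description and does not show that a factor binds there. RefSeq promoters were matched for 6 of the 10 genes, among them Tgfb1, whose window held 1 NF-kB consensus at -140 to -131.

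Per kilobase of the deposited gene length (RPKM), the ratio of Cd274 to Pdcd1lg2 was 0.620, 1.25 and 0.906 in CTR, 1.004, 0.995 and 1.31 in NE and 1.64, 1.54 and 1.67 in TDE. The TDE ratios were above all others. Against the costimulatory ligand Cd86, which signals through CD28, the RPKM ratio of Cd274 was 0.625, 1.39 and 1.33 in CTR, 1.27, 1.35 and 1.35 in NE and 6.52, 6.00 and 6.22 in TDE. With Cd80, the other CD28 ligand and itself a partner of PD-L1 on the same membrane, it was 0.885 to 1.496 in CTR, 1.41 to 1.60 in NE and 4.56 to 5.60 in TDE. Cd274 thus passed from about level with both costimulatory ligands to several times above them in RPKM. These ratios were chosen after the values were seen and are given as a description; an exact permutation test of 3 against 3 libraries could not give a p under 0.1.

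Of the 10 partner and handling genes of the PD-1 ligands, 1 was higher and 1 lower in TDE than in CTR. Their median log2 fold change was 0.04, and 16.9% of all tested genes passed in that comparison. Cop1, a ubiquitin ligase gene, rose from 90.5 ± 2.29 to 126 ± 3.19 CPM (log2 fold change 0.48, edgeR adjusted p = 0.0192). The lower gene was Pdcd1, which encodes the receptor PD-1 itself and was named after its values were seen, at 2.34, 2.80 and 3.63 CPM in CTR and 0.609, 0.709 and 0.835 CPM in TDE (-2.02, adjusted p = 0.00280). Cd80 did not pass (-0.15, adjusted p = 0.601), nor did Cmtm6, which stabilizes PD-L1 at the cell surface (0.14, adjusted p = 0.749). Without CTR replicate 1 the sign of Cmtm6 against CTR turned, again without passing (-0.19, edgeR adjusted p = 0.0896). In that fit it passed as lower against NE (-0.25, adjusted p = 0.0163).

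Interferon signalling through JAK and STAT proteins is the best known inducer of Cd274 and Ido1. Of its 19 listed genes 17 were tested, 4 were higher in TDE than in CTR and 0 lower. The median was 0.39, and 16.9% of all tested genes passed. Ifng and Ifnb1, the interferon genes of the list, were the 2 below the low-count filter. Socs1, a feedback inhibitor of JAK signalling, rose from 2.79 ± 0.296 to 12.4 ± 1.11 CPM (log2 fold change 2.15, edgeR adjusted p = 0.000476), and Ifnar2, a subunit of the type I interferon receptor, from 151 ± 1.87 to 296 ± 9.15 CPM (0.97, adjusted p = 0.00103). The other 2 were Stat5a (0.85, adjusted p = 0.00790) and Ifngr2 (0.53, adjusted p = 0.0278). Irf1, itself an interferon target, was at 0.13 and did not pass (adjusted p = 0.4996).

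Vsir rose by a smaller step with little spread. It was at 568, 611 and 554 CPM in CTR, 571, 569 and 579 CPM in NE and 939, 914 and 926 CPM in TDE. The CTR and NE libraries could not be separated and every TDE library lay above them. Against CTR the log2 fold change was 0.68 (SE 0.117, 95% interval 0.41 to 0.95, edgeR adjusted p = 0.00664) and against NE it was 0.69 (SE 0.117, adjusted p = 0.00613). Vsir at chr10:60346851-60372684 did not depend on CTR replicate 1, with 0.66 against CTR without it (adjusted p = 0.000134), and it kept its call in 16 of 17 alternatives against CTR, the exception being the fit of the CTR and TDE libraries alone (adjusted p = 0.0516), and in 17 of 17 against NE. None of the 5 motifs was found in its promoter window. Of the 2 listed VISTA partners only Selplg, which encodes the P-selectin ligand PSGL-1, was tested, and it did not pass (0.12, adjusted p = 0.489).

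Lgals9, the galectin-9 gene on the minus strand at chr11:78962974-78984946, was at 50.1, 68.5 and 64.2 CPM in CTR, 61.0, 76.0 and 66.1 CPM in NE and 73.2, 76.0 and 72.9 CPM in TDE. The TDE libraries were above all CTR libraries but within the NE range. Neither difference passed, with log2 fold changes of 0.28 against CTR (95% interval -0.07 to 0.63, edgeR adjusted p = 0.220) and 0.13 against NE (95% interval -0.22 to 0.48, adjusted p = 0.696), so a rise of up to 0.63 lay within the interval. Its promoter window held 1 interferon-stimulated response element core, at -54 to -46.

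**Figure D2:**
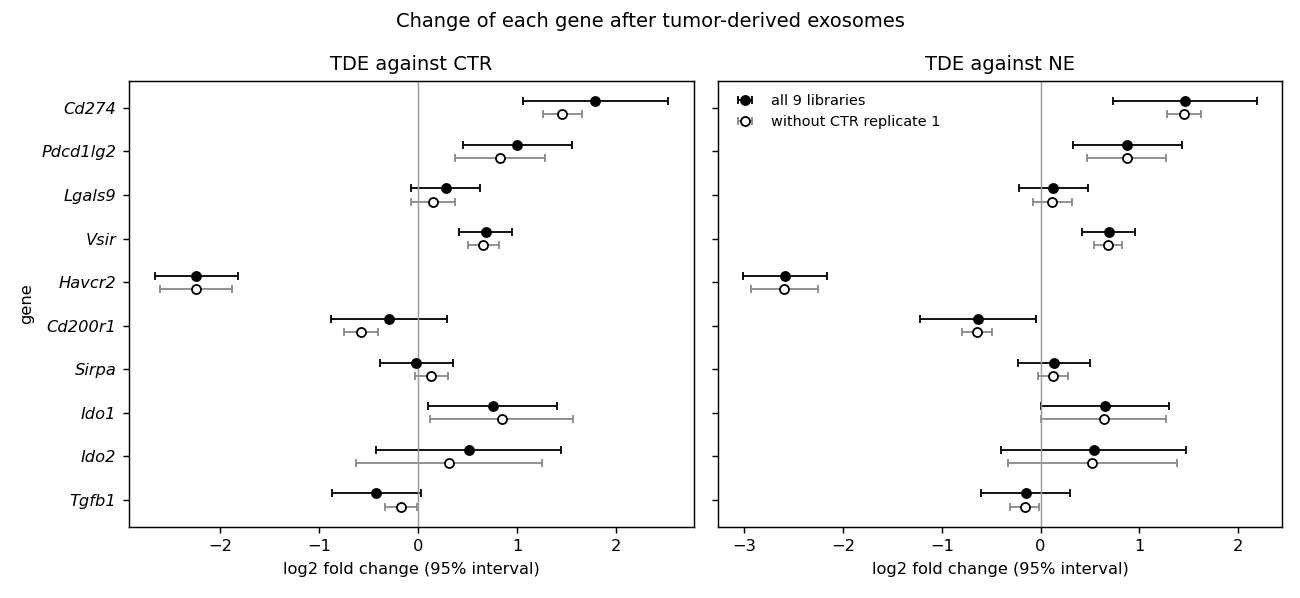
Log2 fold change of each gene with its 95% interval in TDE against CTR (left) and TDE against NE (right), from all 9 libraries (filled points) and without CTR replicate 1 (open points), with a vertical line at 0. With all libraries, the unadjusted intervals of Cd274, Pdcd1lg2, Vsir, Havcr2 and Ido1 lie clear of 0 in both panels and that of Cd200r1 in the right panel, although Ido1 and Cd200r1 did not pass the adjusted test. Cd200r1 against CTR lies at -0.58 without CTR replicate 1, clear of 0, in place of -0.29.

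Among the inhibitory receptors, Havcr2 was the one that passed the edgeR test as lower with all 9 libraries. It was at 9.81, 9.20 and 10.1 CPM in CTR, 12.7, 12.8 and 11.6 CPM in NE and 2.21, 1.58 and 2.35 CPM in TDE, from 155 to 240 estimated reads per library in CTR and NE and 29.1 to 45.1 in TDE. Every TDE library was far below the others, and the NE libraries lay above the CTR libraries. Havcr2 fell by 2.24 on the log2 scale against CTR (SE 0.183, edgeR adjusted p = 0.000263) and by 2.59 against NE (SE 0.184, adjusted p = 0.000112). All 17 alternatives kept both calls, with values between -2.34 and -2.08 against CTR and between -2.70 and -2.43 against NE. In NE against CTR the difference of 0.35 did not pass (SE 0.170, 95% interval -0.04 to 0.74). The RPKM ratio of Havcr2 to Lgals9, chosen after the values were seen, was 0.0783 to 0.114 in CTR, 0.0980 to 0.122 in NE and 0.0121 to 0.0188 in TDE.

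TIM-3 is also made by mast cells, whose markers were lower in TDE libraries as well. The mast cell genes Cpa3 and Ms4a2 were at 20.6, 23.3 and 20.4 CPM and at 8.86, 11.3 and 8.31 CPM in CTR, and fell by 2.67 and 1.79 on the log2 scale in TDE (edgeR adjusted p = 8.7e-05 and 0.00095). Summed T and NK cell markers, another source of TIM-3, were at 6.40 to 10.4 CPM in CTR and 1.09 to 1.83 CPM in TDE. The part of these cells in the fall of Havcr2 was not tested. The promoter of Havcr2, the gene at chr11:46454935-46481255 that fell, is shown beside those of the ligands that rose; it is chr11:46454681-46454930 of GRCm38.p6, plus strand, with capitals for the motif matches.
Havcr2: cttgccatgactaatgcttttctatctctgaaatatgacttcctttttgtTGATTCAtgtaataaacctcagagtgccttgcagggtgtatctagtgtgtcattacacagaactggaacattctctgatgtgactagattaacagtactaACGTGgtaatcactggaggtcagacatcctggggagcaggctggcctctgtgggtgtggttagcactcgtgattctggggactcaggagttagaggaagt
It held 1 AP-1 site at -200 to -194 and 1 hypoxia response core at -100 to -96, which do not overlap.

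The galectin and TIM family list counted 12 genes, of which 9 were tested. In TDE against CTR 0 were higher and 2 lower (median -0.33), where 16.9% of all tested genes passed. Lgals3, the galectin-3 gene, was at 2663 ± 1970 CPM in CTR and 715 ± 2.80 CPM in TDE (SD, n = 3; log2 fold change -1.90, edgeR adjusted p = 0.0248), and Hmgb1, a TIM-3 ligand gene, fell from 195 ± 27.6 to 122 ± 6.69 CPM (-0.68, adjusted p = 0.0217). Without CTR replicate 1 the Lgals3 difference was -1.11 (adjusted p = 0.000320). Its difference from NE did not pass with all libraries (-1.17, adjusted p = 0.131) but passed without CTR replicate 1 (-1.17, edgeR adjusted p = 9.95e-05).

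Cd200r1, the receptor for CD200 on myeloid cells, was the gene whose call changed when CTR replicate 1 was left out. It was at 74.8, 149.9 and 160.0 CPM in CTR, 166, 161 and 160.0 CPM in NE and 108, 97.7 and 109 CPM in TDE. All TDE libraries were below all NE libraries and below 2 of the 3 CTR libraries, and CTR replicate 1 lay below the TDE libraries. With all libraries the log2 fold change was -0.29 against CTR (SE 0.256, edgeR adjusted p = 0.428) and -0.63 against NE (SE 0.256, adjusted p = 0.157), and neither passed. Without CTR replicate 1 both passed, at -0.58 (SE 0.0751, adjusted p = 0.000460) and -0.64 (SE 0.0682, adjusted p = 0.000102), which made 5 of the 10 genes called in each comparison. The same omission raised the share of all tested genes called to 34.4% against CTR and 40.7% against NE.

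Cd200r1 at chr16:44765736-44794978 has close paralogues, and reads may be split between them. Of the 8 genes of its axis 1 was higher and 2 were lower in TDE than in CTR (median -0.13). The share called over all tested genes was 16.9%. Cd200, the ligand, rose from 14.3 ± 3.10 to 23.3 ± 1.24 CPM (log2 fold change 0.71, edgeR adjusted p = 0.0398). Cd200r3, an activating paralogue, fell from 32.1 ± 9.76 to 14.3 ± 2.33 CPM (-1.16, adjusted p = 0.0100), and Dok2, an adaptor of the receptor, from 191 ± 53.9 to 91.2 ± 3.42 CPM (-1.06, adjusted p = 0.00817).

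Sirpa had the highest level of the 10 genes and did not pass the test. It was at 1623, 1171 and 1216 CPM in CTR, 1274, 1182 and 1147 CPM in NE and 1339.5, 1262 and 1357 CPM in TDE. The highest value belonged to CTR replicate 1, and the TDE libraries lay between it and the other CTR libraries. The log2 fold change was -0.02 against CTR (95% interval -0.39 to 0.35, edgeR adjusted p = 0.941) and 0.14 against NE (95% interval -0.23 to 0.50, adjusted p = 0.696). Its sign against CTR depended on the setting, turning to 0.13 without CTR replicate 1 (adjusted p = 0.202), to 0.08 with library totals and to 0.16 under limma voom with sample weights, where it passed (adjusted p = 0.0405). The voom fit gave CTR replicate 1 a weight of 0.027 and called 7886 of the 15028 tested genes against CTR.

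Around Sirpa, at chr2:129592835-129632228, its ligand, adaptors and paralogues counted 10 genes. In TDE against CTR 4 were higher and 0 lower (median 0.42), where 16.9% of all tested genes passed. Cd47, the ligand that marks cells against uptake and named for that role after its values were seen, was at 247, 263 and 265 CPM in CTR and 345, 346 and 334 CPM in TDE (log2 fold change 0.40, edgeR adjusted p = 0.0399), and missed the threshold against NE (0.36, adjusted p = 0.0640). Without CTR replicate 1 the difference of Cd47 from NE passed (0.36, edgeR adjusted p = 0.000976). Fyb, an adaptor gene, rose from 350 ± 96.5 to 1044 ± 13.99 CPM (1.58, adjusted p = 0.00214) and Sirpb1a, an activating paralogue of the family, from 45.8 ± 22.6 to 149 ± 6.20 CPM (1.70, adjusted p = 0.0153). The remaining higher gene was the paralogue Sirpb1b (0.93, adjusted p = 0.0106), and paralogues of this family may share reads with Sirpa.

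The IDO enzyme genes, 7802 bases apart on the minus strand of chromosome 8 with Ido2 at chr8:24531892-24576333 and Ido1 at chr8:24584136-24597009, were near the lower limit of what this depth resolves. Ido1 was at 0.823, 0.767 and 0.554 CPM in CTR, 0.901, 0.650 and 0.745 CPM in NE and 1.16, 1.20 and 1.25 CPM in TDE, which is 11 to 17 estimated reads per library outside TDE and 21 to 24 in TDE. All TDE libraries were above the others. The log2 fold change of 0.75 against CTR did not pass (SE 0.284, 95% interval 0.10 to 1.40, edgeR adjusted p = 0.105) and neither did 0.65 against NE (SE 0.283, adjusted p = 0.187), although limma voom with sample weights called both (adjusted p = 0.0376 and 0.0266). That voom fit called 7886 and 8311 of the 15028 tested genes in the 2 comparisons. Ido2 was at 0.633 to 1.06 CPM in CTR, 0.541 to 1.09 CPM in NE and 0.835 to 1.80 CPM in TDE, 10 to 33 reads in any library. Its groups overlapped and the difference of 0.51 against CTR had an interval from -0.43 to 1.45 (edgeR adjusted p = 0.393), too wide at this depth to tell a rise from a fall.

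Of 20 listed genes of tryptophan handling and response 15 were tested, 1 was higher and 1 lower in TDE than in CTR (median 0.07). That share was no larger than the 16.9% called over all tested genes. Tiparp, a target of the aryl hydrocarbon receptor that kynurenine can activate, rose from 21.9 ± 9.73 to 107 ± 8.95 CPM (log2 fold change 2.29, edgeR adjusted p = 0.00307). Ahrr, in the same list, did not pass (0.63, adjusted p = 0.284, and 0.24, adjusted p = 0.259, without CTR replicate 1). Without that library Cyp1b1 did not pass (0.18, adjusted p = 0.827), and the list counted 3 higher and 2 lower of 16 tested. A part of the receptor in the rise of Tiparp was not tested. Wars, the tryptophan tRNA ligase gene, fell from 53.1 ± 21.4 to 28.0 ± 1.98 CPM (-0.92, adjusted p = 0.0390, and -0.55 without CTR replicate 1) and did not pass against NE (-0.58, adjusted p = 0.180). Without CTR replicate 1 Wars passed as lower against NE too (-0.59, edgeR adjusted p = 0.000352). Ahr itself did not pass with all libraries, at 0.07 against CTR (interval -0.72 to 0.86, edgeR adjusted p = 0.891). Its level was 9.37 CPM in CTR replicate 1, against 25.3 and 28.5 CPM in the other CTR libraries. Without CTR replicate 1 Ahr passed as lower in TDE than in CTR (-0.29, adjusted p = 0.0464). It did not pass against NE in that fit (-0.13, adjusted p = 0.283).

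Tgfb1, at chr7:25687002-25705077, was at 401, 259 and 241 CPM in CTR, 259, 236 and 251 CPM in NE and 226, 221 and 225 CPM in TDE. The TDE libraries were the lowest, by a narrow margin against all but CTR replicate 1. The log2 fold change was -0.42 against CTR (SE 0.196, 95% interval -0.87 to 0.02, edgeR adjusted p = 0.161) and -0.15 against NE (SE 0.196, adjusted p = 0.731). Without CTR replicate 1 the first was -0.17 (adjusted p = 0.0993). Only limma voom with sample weights called it, at -0.19 against CTR (adjusted p = 0.0217) and -0.14 against NE (adjusted p = 0.0422). In these voom comparisons 7886 and 8311 of the 15028 tested genes passed.

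The TGF-β list of ligands, activators, receptors and SMADs counted 28 genes, of which 25 were tested. In TDE against CTR 3 were higher and 1 lower (median 0.34), a share close to the 16.9% of all tested genes. Tgfbi, a gene named for its induction by TGF-β, rose from 500 ± 13.2 to 852 ± 30.3 CPM (log2 fold change 0.77, edgeR adjusted p = 0.00432). Among the others, Tgfb3 was higher (2.70, adjusted p = 0.00495) and Ltbp1 was the lower one (-1.31, adjusted p = 0.00774), each with a mean under 5 CPM. Tgfbr1, the type I receptor gene, was at 80.6, 77.2 and 84.8 CPM in TDE against 195, 192 and 155 CPM in NE. With all libraries it did not pass against NE (-1.16, edgeR adjusted p = 0.0705) or against CTR (-0.69, adjusted p = 0.199). Without CTR replicate 1 it passed as lower in both, at -1.17 (adjusted p = 5.24e-05) and -1.06 (adjusted p = 0.000210).

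Set side by side per length, the 10 genes spanned almost 3 orders of magnitude. In CTR libraries the order of mean RPKM was Sirpa (349.6), Tgfb1 (138), Vsir (119), Cd200r1 (67.8), Pdcd1lg2 (44.9), Cd274 (42.1), Lgals9 (38.4), Havcr2 (3.56), Ido1 (0.458) and Ido2 (0.365). Neighbours whose libraries overlapped were Tgfb1 with Vsir, each successive pair from Cd200r1 to Lgals9, and Ido1 with Ido2. In TDE libraries the order was Sirpa (345), Vsir (191), Cd274 (145), Tgfb1 (103), Pdcd1lg2 (90.0), Cd200r1 (55.3), Lgals9 (46.7), Ido1 (0.772), Havcr2 (0.752) and Ido2 (0.524), and of successive pairs only Ido1 with Havcr2 and Havcr2 with Ido2 overlapped. Cd274 thus stood in the 6th place in CTR, the 5th in NE and the 3rd in TDE, and Havcr2 passed from the 8th to the 9th.

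The summed RPKM of the 10 genes was 768 to 856 in CTR, 753 to 810 in NE and 949.9 to 993 in TDE libraries. Cd274 made up 2.44, 6.51 and 7.01% of it in CTR, 6.71, 6.96 and 6.53% in NE and 15.01, 14.5 and 14.99% in TDE. Vsir went from 13.7 to 16.4% in CTR to 19.3 to 19.9% in TDE, and Sirpa from 39.9 to 49.6% to 34.7 to 35.8%. These shares depend on each other, since they add up to the whole, and are given as a description.

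**Figure D3:**
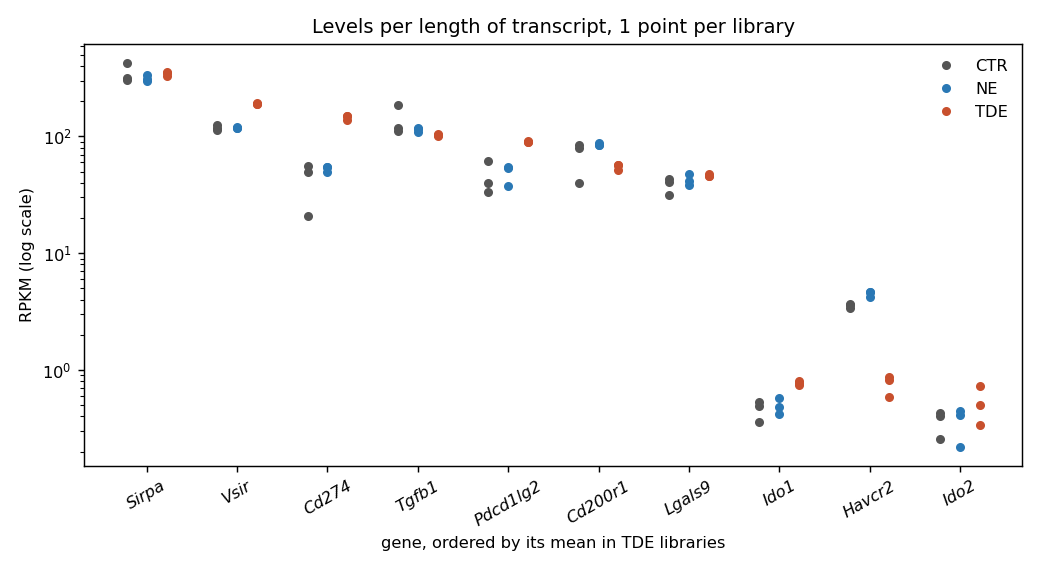
Level of each gene per kilobase of its length (RPKM, logarithmic axis), 1 point per library, genes ordered by their mean in TDE libraries and groups by color. Cd274 moves from a CTR mean of 42.1 to a TDE mean of 145, past Tgfb1, while Havcr2 drops from 3.56 to 0.752 into the range of Ido1.

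Over the 9 libraries, the genes whose log2 CPM followed Cd274 most closely were Pik3ap1 and Helb (Pearson's r of 0.998 each) with the assembled transcript MSTRG.10630 (0.998). Those closest to Vsir were Gpr31b (0.997), Draxin and Zfp811 (0.996 each), and those closest to Havcr2 were C77080, Igf1 and Fam129b (0.994 each). For Pdcd1lg2 they were the assembled transcripts MSTRG.9695 (0.992) and MSTRG.10370 (0.991) with Atp2b4 (0.991). The 9 points fall into TDE libraries on one side and CTR and NE libraries on the other, so these coefficients mostly describe that separation, and they are given as a description.

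Beyond the 10 genes, a list of 32 other inhibitory receptors, ligands and mediators held genes that changed in either direction. Of 28 tested, 12 were higher and 3 lower in TDE than in CTR (median 0.49), where 16.9% of all tested genes passed. Against NE 13 were higher and 3 lower (median 0.65), beside 13.9% of all tested genes. Siglece, a sialic acid-binding inhibitory receptor gene, rose from 22.1 ± 6.04 to 209 ± 2.95 CPM (log2 fold change 3.24, edgeR adjusted p = 8.24e-05) and Hmox1, the heme oxygenase gene, from 213 ± 40.7 to 750.1 ± 63.2 CPM (1.81, adjusted p = 0.000620). Entpd1, which encodes the ATP-degrading enzyme CD39, fell from 99.2 ± 13.6 to 39.8 ± 1.48 CPM (-1.32, adjusted p = 0.00103), and Cd300a, an inhibitory receptor gene, from 332 ± 8.64 to 150.1 ± 4.10 CPM (-1.15, adjusted p = 0.000597), and the third lower gene was Lilrb4a (-1.02, adjusted p = 0.0400). Il10, named for its role in tolerance after its values were seen, was at 2.32, 2.02 and 2.77 CPM in TDE and at or below the level of 3 reads in every CTR and NE library.

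DC maturation genes changed in both directions. Of 17 tested, 2 were higher and 5 lower in TDE than in CTR (median -0.36), where 16.9% of all tested genes passed. Against NE 2 were higher and 1 lower, a share close to the 13.9% of all tested genes. Without CTR replicate 1 the list counted 4 higher and 7 lower against NE, where 40.7% of all tested genes passed. Birc3, an inhibitor of apoptosis, was at 166 ± 65.2 CPM in CTR and 363 ± 9.77 CPM in TDE (log2 fold change 1.13, edgeR adjusted p = 0.0305), and Il12b, the p40 chain of interleukin 12, rose from 116 ± 1.29 to 200.3 ± 12.4 CPM (0.79, adjusted p = 0.00280). Ccr7, the receptor for migration to lymph nodes, fell from 498 ± 228 to 186 ± 12.04 CPM (-1.42, adjusted p = 0.0131) and Ccl17, a T cell chemokine gene, from 13.7 ± 15.7 to 2.09 ± 0.455 CPM (-2.70, adjusted p = 0.04998). The other lower genes were Cd83 (-1.07), Fscn1 (-0.70) and Cd86 (-0.67). Against NE the higher genes were Il12b and Cd40 and the lower one Cd86, while Ccr7 and Ccl17 did not pass (adjusted p = 0.0820 and 0.395). Without CTR replicate 1 the differences from CTR were smaller, at -0.996 for Ccr7 (adjusted p = 0.000176) and -1.15 for Ccl17 (adjusted p = 0.0244). In that fit both also passed as lower against NE, at -0.89 (edgeR adjusted p = 0.000151) and -1.21 (adjusted p = 0.0113).

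Without CTR replicate 1, counts in these lists rose with those of all genes, of which 34.4% then passed against CTR. The list of other inhibitory molecules then counted 17 higher and 5 lower against CTR, the maturation list 3 higher and 7 lower, the CD47 and SIRP axis 6 higher and 1 lower, and the interferon and JAK-STAT list 7 higher and 1 lower.

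**Figure D4:**
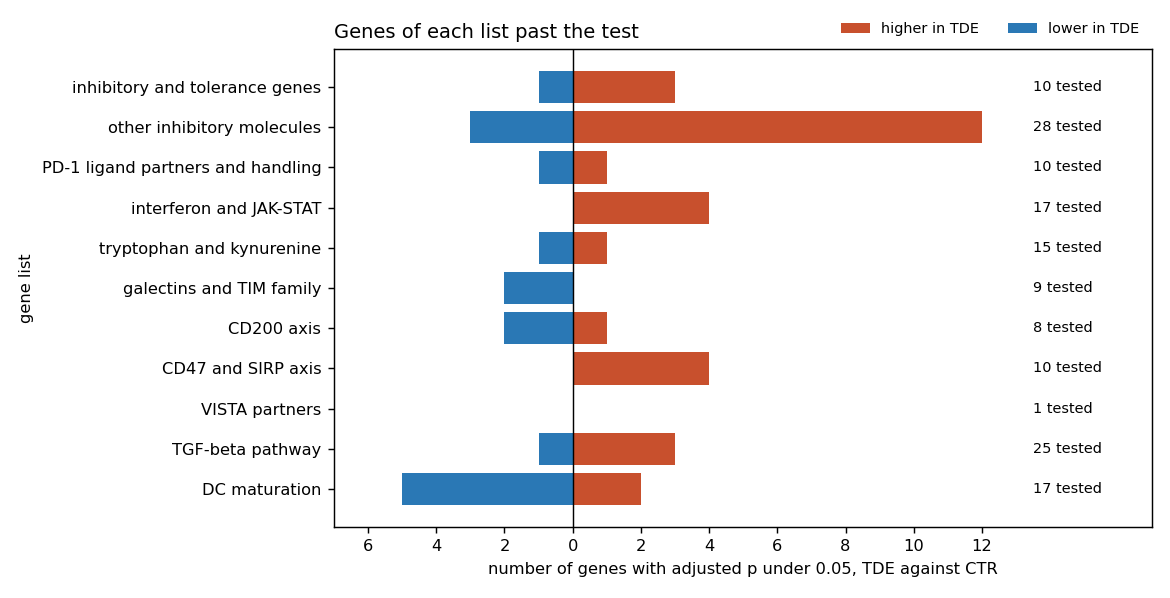
Number of genes with an edgeR adjusted p under 0.05 in TDE against CTR in each gene list, higher in TDE to the right of 0 and lower to the left, with the number tested at the right. The list of other inhibitory molecules has 12 higher and 3 lower of 28 tested, and the maturation list has 2 higher and 5 lower of 17. Over all tested genes 16.9% passed in this comparison.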

How the data were processed

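RNA-seq was analysed for 9 BMDC libraries, 3 each of CTR, NE and TDE, grouped by their labels. The authors deposited 1 table of estimated counts per gene with gene lengths. Per the labels and methods, RNA was extracted with TRIzol and the submitters' processing notes name TopHat2 2.1.1, DESeq2 1.24.0 and R 3.3.1; the counter, genome build, annotation and strand setting are not given in the sources used here. Of 57238 entries, 1702 carried no gene name, being assembled transcripts.

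The deposited expected counts were rounded and fitted with edgeR 4.0.16 in R 4.3.3 (filterByExpr, TMM factors, 1 mean per group over all 9 libraries, quasi-likelihood F test), and p-values were adjusted by Benjamini-Hochberg over 15028 genes with a threshold of 0.05. CPM and RPKM were computed from TMM-scaled totals and the deposited lengths. Alternatives were DESeq2 1.42.0, limma 3.58.1 voom with sample weights, median-ratio factors, library totals, no filter, at least 10 counts in every library, the pair of groups alone, a replicate block, a log2 fold change of at least 1 and each library left out. The script was tested on simulated data. Gene positions are from GENCODE on GRCm38 and promoters from RefSeq on GRCm38.p6.

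The 10 genes and all lists were chosen with earlier results of these data known. All 10 genes were named whatever their values; from each list, up to 2 genes highest and 2 lowest in log2 fold change among those past the test with a mean of at least 5 CPM were named, and the other list genes in the text were chosen after their values were seen, as were the ratios and the window around Cd274. For pattern likeness, the 3 genes with the highest Pearson's r over 9 libraries and at least 5 CPM were named for each of the 10 genes past the test. Intervals at 95% and the level of 3 reads cover error between libraries and counting respectively. Some list genes are not reported here by name.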

Additional observations from a re-analysis of the deposited data

How the results depend on the processing

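Cd274 against CTR and Havcr2 in both comparisons passed in all 17 alternatives, and the other alternatives changed no direction of a gene that passed. Vsir against NE also passed in all 17, although its difference of 0.69 lay under the minimum log2 change of 1. With limma voom and sample weights 8 genes passed against CTR and 7 against NE, and with the pair of groups alone 2 passed against CTR. Against NE 2 passed with library totals and 2 under a minimum log2 change of 1, and the counts ran from 2 to 5 when 1 library was left out, and from 3 to 5 against CTR. Over all genes, calls numbered 7886 against CTR and 8311 against NE with voom, 1152 and 6072 with the pair of groups alone, 1583 and 1307 under that minimum, and ran from 1103 to 5266 and from 970 to 6223 with 1 library left out, the highest being without CTR replicate 1. In NE against CTR DESeq2 called 3 genes, voom 18 and the fits with 1 library left out 0 to 3.

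Replicate numbers did not pair the libraries: the correlations of same-numbered deviations were -0.03, -0.06 and 0.07 for TDE against CTR, and 0.03, -0.04 and -0.07 for TDE against NE. For NE against CTR they were further from 0 and of mixed sign, at -0.37, 0.18 and -0.59. With the replicate number as a block, 3 genes passed against CTR and 2 against NE, of 1285 and 1175 over all genes. Cd274 against NE (adjusted p = 0.0509) and Pdcd1lg2 against CTR (0.0783) and NE (0.122) were no longer called. Scaling by library totals moved the median log2 fold change over all genes in NE against CTR from 0.0048 to 0.13.

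Signs that turned belonged to differences that did not pass, except Sirpa under voom, and the cause was not tested. For Sirpa against CTR the values were 0.0029 with DESeq2, 0.16 with voom, 0.082 with library totals, 0.038 without a filter and -0.098 to 0.13 with 1 library left out. In NE against CTR, library totals gave 0.062 for Ido2, 0.0070 for Sirpa and 0.11 for Vsir, voom gave 0.045 for Sirpa and no filter gave 0.023 for Vsir. With 1 library left out the ranges there were -0.00059 to 0.57 for Cd274, -0.049 to 0.41 for Pdcd1lg2, -0.046 to 0.21 for Ido1, -0.22 to 0.23 for Ido2, -0.23 to 0.0067 for Sirpa and -0.036 to 0.036 for Vsir. Ordering by CPM, not divided by length, moved 7 genes in CTR, 4 in NE and 3 in TDE. At this depth Ido1 and Ido2 rest on 10 to 33 reads per library.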
